A study of Mus musculus with 6 samples.

Results

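The genes of the TGF-beta, BMP and activin pathway were followed in subcutaneous white adipose tissue (scWAT) of mice designed to lack the transcriptional co-activators YAP and TAZ in fat cells. The set held 46 genes, listed by symbol under a rule that used no measured value of these samples. Its members were nevertheless chosen with earlier results of these data known. All 46 were found by symbol among the 55401 genes of the count files. The set comprised 16 ligands, 12 receptors, 8 SMAD proteins, 4 latent TGF-beta binding proteins and 6 antagonists. Of these, 40 had enough reads to be tested alongside 16807 genes in all.

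Ligands of the TGF-beta family are secreted dimers that bring together type II and type I receptor kinases at the cell surface. The type I receptor then phosphorylates SMAD proteins, SMAD2 and SMAD3 for TGF-beta and activin or SMAD1, SMAD5 and SMAD9 for BMPs, which join SMAD4 and enter the nucleus. SMAD6 and SMAD7 feed back to block the receptors, latent TGF-beta binding proteins hold TGF-beta in the matrix, and secreted antagonists capture BMPs or activins before they reach a receptor. In adipose tissue TGF-beta and activin are known to hold back the differentiation of fat cells and to drive matrix production, whereas several BMPs favour commitment to white or brown fat.

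Bulk RNA-seq was made from scWAT of 8-week-old male mice kept at room temperature on a normal diet, with 3 libraries per genotype. The control libraries carried the label WT and are called YT-FF here, the study's name for control mice with *loxP*-flanked alleles of *Yap* and *Taz* and no Cre. The other group, YT-AKO, was homozygous for the same floxed alleles (written fl/fl in the labels) and also carried *Adipoq*-Cre, which is active in mature adipocytes and leaves the genes intact in the fibroblasts, vessels, nerves and immune cells that whole scWAT also holds. The floxed mice were on a mixed C57BL/6 and 129 background.

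Total counts per library lay between 17740987 and 21838493. *Yap1* was at 69.1, 57.1 and 66.7 CPM (read counts scaled to a common library size by TMM) in YT-FF and at 37.7, 29.0 and 31.3 in YT-AKO (log2 fold change -0.98 ± 0.167 SE, edgeR adjusted p = 0.0179). With a correction for exon length that value was -0.58 (edgeR adjusted p = 0.0450), and without YT-FF 1 or YT-FF 2 it did not pass (adjusted p = 0.110 and 0.111, edgeR). *Wwtr1*, which encodes TAZ, went against the label, with 77.5, 76.0 and 98.8 CPM in YT-FF and 175, 133 and 161 CPM in YT-AKO (log2 fold change 0.89 ± 0.182 SE, edgeR adjusted p = 0.0220), and it too did not pass without either of those libraries (adjusted p = 0.120 and 0.123, edgeR). The position of the deleted *Wwtr1* exons was not given in the sources used here, so whole-gene counts may include reads from a disrupted transcript. At the protein level, the paper reported a clear loss of YAP and TAZ in YT-AKO scWAT by immunoblot. The group is written below as the libraries labelled YT-AKO. The library YT-AKO 2 stood apart, with a TMM factor of 0.777 against 0.954 to 1.16 in the others and a mean correlation with its own group of 0.936 against 0.953 to 0.981. Its count-weighted median exon length was 3157 bases against 3823 to 4753 bases in the others, and across all tested genes longer genes had lower fold changes (Spearman's rho -0.376, and -0.283 without YT-AKO 2). Members were long, with a median exon length of 5289 bases against 3888 bases for all tested genes, so values without that library and values corrected for length are given beside the results.

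The promoters of members that passed the test are shown because SMAD complexes and TEAD factors, the DNA-binding partners of YAP and TAZ, act at such regions. RefSeq promoter windows were used for 31 of the 46 members, among them 4 of the 7 that passed. Each line gives bases upstream of the annotated start, 5′ to 3′ on the gene's strand, with the short SMAD-binding element CAGAC or its reverse complement GTCTG in capitals. Build GRCm38.p6 applies to all of them. *Tgfbr1* has an upstream start and a second start inside the gene, in an intron of the longer transcript, and the *Ltbp2* sequence stops at 209 bases, where the annotated gene begins.
Gdf10, chr14:33923337-33923586, plus strand: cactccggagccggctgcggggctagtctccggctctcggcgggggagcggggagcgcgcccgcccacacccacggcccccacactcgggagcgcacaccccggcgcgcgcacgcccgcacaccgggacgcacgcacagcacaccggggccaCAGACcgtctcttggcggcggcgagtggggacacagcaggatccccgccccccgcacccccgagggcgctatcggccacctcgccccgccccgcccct
Tgfbr1 upstream start, chr4:47352972-47353221, plus strand: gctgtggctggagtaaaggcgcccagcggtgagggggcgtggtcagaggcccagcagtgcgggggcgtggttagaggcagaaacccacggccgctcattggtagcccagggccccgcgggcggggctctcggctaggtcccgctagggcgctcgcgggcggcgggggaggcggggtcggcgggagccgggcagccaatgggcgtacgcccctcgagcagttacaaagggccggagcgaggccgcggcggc
Tgfbr1 internal start, chr4:47385966-47386215, plus strand: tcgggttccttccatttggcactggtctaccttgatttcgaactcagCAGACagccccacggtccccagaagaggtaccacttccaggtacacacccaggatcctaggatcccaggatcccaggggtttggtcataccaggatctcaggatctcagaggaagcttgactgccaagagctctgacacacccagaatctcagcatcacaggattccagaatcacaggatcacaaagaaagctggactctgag
Ltbp2, chr12:84876533-84876741, minus strand: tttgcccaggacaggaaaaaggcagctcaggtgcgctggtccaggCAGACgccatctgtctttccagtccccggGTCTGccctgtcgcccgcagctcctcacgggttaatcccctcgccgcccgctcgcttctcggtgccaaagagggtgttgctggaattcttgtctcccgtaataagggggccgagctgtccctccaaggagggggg
Grem1, chr2:113758649-113758898, minus strand: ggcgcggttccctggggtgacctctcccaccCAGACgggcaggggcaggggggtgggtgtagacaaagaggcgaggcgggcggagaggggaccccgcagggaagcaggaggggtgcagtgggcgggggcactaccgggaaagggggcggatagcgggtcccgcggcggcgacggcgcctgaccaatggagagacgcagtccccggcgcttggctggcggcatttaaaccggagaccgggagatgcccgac

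The element CAGAC, searched on both strands, was present once in the windows of *Gdf10* and *Grem1*, 2 times in that of *Ltbp2*, once at the internal start of *Tgfbr1* and not at its upstream start. Over 250 upstream bases it occurred in 18 of the 40 windows of members (45.0%) and in 42.2% of 32851 RefSeq windows of the same length. The TEAD element GGAATG, also searched on both strands, occurred in 0 of the 40 member windows and in 12.6% of all windows. The member windows came from 31 of the 46 members. *Smad2*, *Smad4*, *Smad7* and *Bambi* were among the members left out, so neither share covers the whole set. These genes lie on chromosome 18, from which no member window was taken. The windows of all genes were not limited in that way, so the sets compared are not fully alike. These counts describe letters in a short window and say nothing of whether a factor binds there. *Bmp3*, *Tgfbr3* and *Chrdl1* had no entry in the promoter table.

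Of the 40 tested members, 7 (17.5%) passed an adjusted p of 0.05 in edgeR's quasi-likelihood test, against 21.6% of all tested genes. The ligand *Gdf10* rose in YT-AKO (2.50% of members against 12.6% of all genes). Lower were the ligand *Bmp3*, the receptors *Tgfbr1* and *Tgfbr3*, the matrix protein gene *Ltbp2* and the BMP antagonists *Grem1* and *Chrdl1*, 6 members in all (15% against 9.01% of all genes). At an unadjusted p under 0.05 there were 14 members, where 40.8% of all genes were. With the length correction 4 members were lower (10%, against 4.54% of all genes) and 2 higher (5%, against 10.1%). The share of members called was thus near the share of all genes. A stricter rule asked for an adjusted p under 0.01 with a log2 fold change beyond 1. In edgeR no member reached it, where 0.125% of all genes did. In DESeq2 *Bmp3* (-1.91, adjusted p = 1.6e-05) and *Chrdl1* (-1.60, adjusted p = 4.26e-07) were beyond it. The share of all genes beyond it in DESeq2 was not counted. In whole tissue, fewer cells of a type and less RNA per cell cannot be told apart in any of these values, and with 3 libraries a group the p-values measure the spread between these samples only.

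Log2 fold changes of the members lay mostly below 0. They were negative for 31 of 40 members (77.5%) and for 51.0% of all tested genes, with a median of -0.31 for members and -0.02 for all genes. Groups did not overlap in CPM for 17 members that were lower (42.5%, against 25.8% of all genes) and for 4 that were higher (10%, against 25.7%). The median of the members was -0.22 with the length correction, where that of all genes was 0.06. Without YT-AKO 2 and with the length correction it was -0.06 beside 0.03 for all genes, so that the median of members minus that of all genes went from -0.29 to -0.10. Scaling the libraries by their totals alone moved the median of all genes to -0.34 and that of members to -0.61, and then *Tgfb1*, *Tgfb3*, *Gdf5*, *Acvrl1*, *Fstl1* and *Bambi*, all uncalled, changed from above to below 0.

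**Figure D1:**
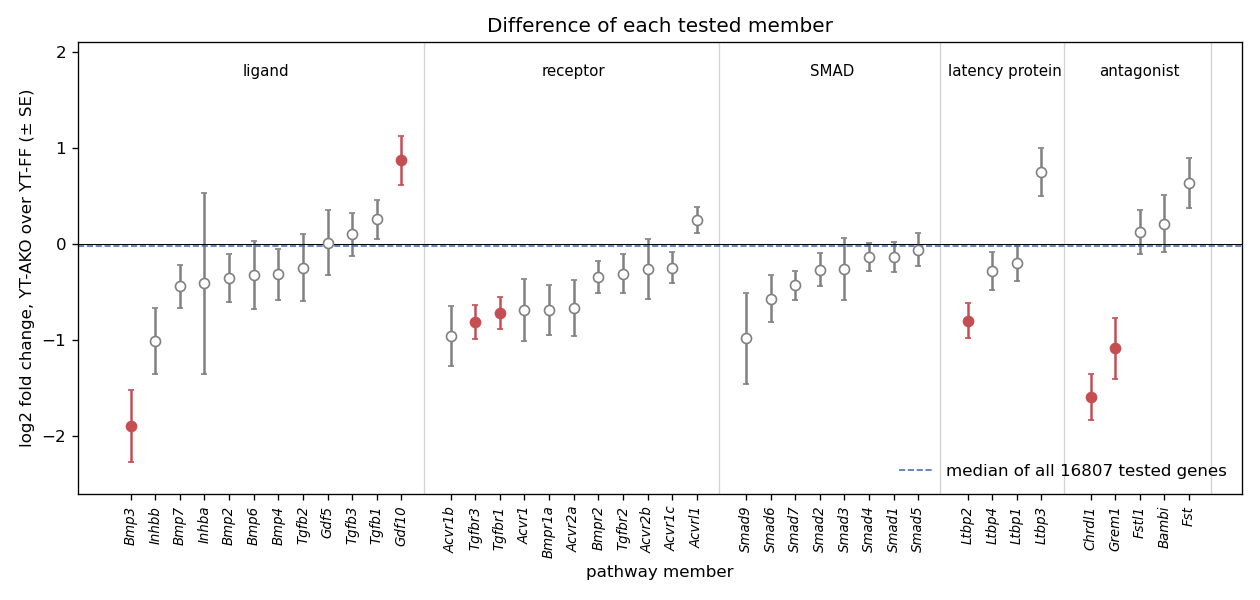
Log2 fold change of YT-AKO over YT-FF for each of the 40 tested members, grouped by role and ordered within each role, with bars for 1 SE; filled red points passed an edgeR adjusted p of 0.05. Most points lie below the dashed median of all genes at -0.02, with *Bmp3* lowest at -1.90 and *Gdf10* highest at 0.87.

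Among the ligands, *Bmp3* and *Gdf10* moved apart. *Bmp3* (ENSMUSG00000029335, chr5:98854415-98884396) encodes a BMP that opposes bone-inducing BMPs, and *Gdf10* (ENSMUSG00000021943, chr14:33923587-33937983) encodes its closest relative, also known as BMP-3b. *Bmp3* was at 31.1, 28.8 and 64.7 CPM in YT-FF and at 9.83, 8.37 and 15.3 CPM in the libraries labelled YT-AKO. Every control library was above every YT-AKO library, and YT-FF 3 was well above the other controls. The log2 fold change was -1.90 ± 0.374 SE (edgeR adjusted p = 0.0207), -1.73 without YT-AKO 2 (adjusted p = 0.0120, edgeR) and -1.61 with the length correction (adjusted p = 0.0332, edgeR). Without YT-FF 3 it was -1.42 (edgeR adjusted p = 0.0475).

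*Gdf10* was at 25.5, 28.5 and 34.9 CPM in YT-FF and at 65.6, 35.8 and 61.3 CPM in the libraries labelled YT-AKO. The groups did not overlap, but YT-AKO 2 was only just above the highest control. The log2 fold change of 0.87 ± 0.253 SE had an edgeR adjusted p of 0.0456, near the threshold. Without YT-AKO 2 it was 1.10 (edgeR adjusted p = 0.00241), and leaving out any other library gave adjusted p values from 0.0780 to 0.170. TPM divides counts by exon length and rescales each library to the same sum. Set per length, as TPM, *Gdf10* stood at 1.16, 1.40 and 0.767 times the level of *Bmp3* in the control libraries and at 9.49, 6.07 and 5.71 times that level in YT-AKO. That these ratios do not overlap follows from the opposite differences of the 2 genes and is no further result.

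The other ligands did not pass the test. *Tgfb1*, encoding the TGF-beta isoform most abundant here, was at 101, 97.6 and 86.5 CPM in YT-FF and at 91.6, 146 and 103 CPM in the libraries labelled YT-AKO. These ranges overlapped, and the log2 fold change of 0.26 (edgeR adjusted p = 0.364) was 0.03 without YT-AKO 2. *Inhbb*, which encodes the beta-B subunit of activin B and is a known adipocyte product, was at 55.7, 53.5 and 67.2 CPM in YT-FF and at 19.7, 20.7 and 47.4 CPM in YT-AKO. All YT-AKO values were below all control values, but YT-AKO 3 lay nearer to the controls than to its own group, and the log2 fold change of -1.01 ± 0.341 SE had an edgeR adjusted p of 0.0673. DESeq2 and limma-voom both called *Inhbb* lower.

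The BMP ligands best known from fat biology did not pass. *Bmp4*, linked to commitment to the white lineage, had a log2 fold change of -0.31 ± 0.266 SE, and *Bmp7*, linked to the brown lineage, one of -0.44 ± 0.225 SE. *Bmp2* (-0.35), *Bmp6* (-0.32), *Tgfb2* (-0.24), *Tgfb3* (0.10), *Gdf5* (0.02) and *Inhba* (-0.41), on the log2 scale, had edgeR adjusted p values from 0.321 to 0.976. *Inhba*, the beta-A subunit, was near the lower limit of the measurement at 1.07 CPM or less in every library. Exons of *Gdf5* share 40.3% of their bases with another annotated gene, and the reads of the 2 cannot be told apart.

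**Figure D2:**
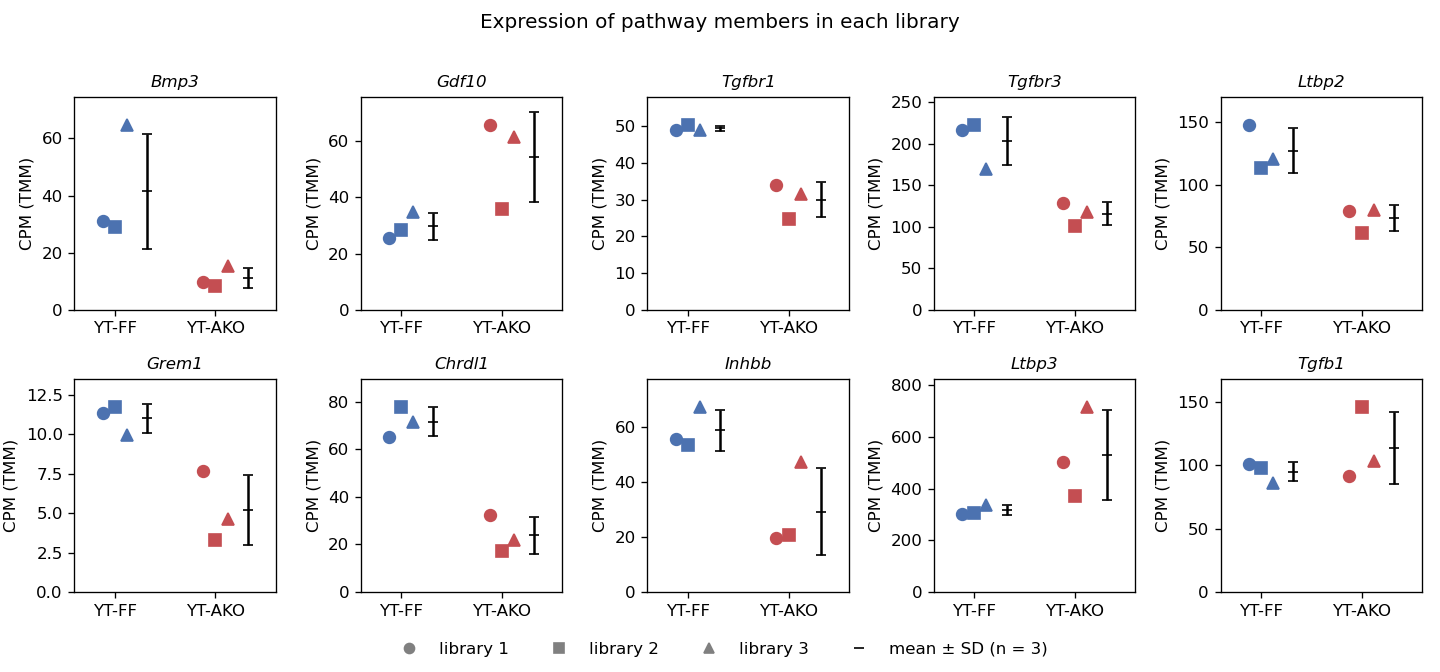
TMM-scaled CPM of 10 members in each library, with 3 marker shapes for libraries 1 to 3 of each group and the mean ± SD (n = 3) beside them; each vertical axis starts at 0. *Bmp3*, *Tgfbr1*, *Tgfbr3*, *Ltbp2*, *Grem1*, *Chrdl1* and *Inhbb* are lower in all 3 YT-AKO libraries, *Gdf10* and *Ltbp3* are higher, and *Tgfb1* overlaps.

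Of the 11 tested receptors, 10 had log2 fold changes below 0, where 51.0% of all genes did, with a median of -0.66. That median was -0.38 without YT-AKO 2 and -0.47 with the length correction. With that correction *Bmpr2* (0.27), *Acvr1c* (0.18), *Tgfbr2* (0.04) and *Acvrl1* (0.33), all uncalled, had values above 0. The 2 that passed the test, both lower (18.2%, against 9.01% of all genes), belong to the TGF-beta branch. *Tgfbr1* (ENSMUSG00000007613, chr4:47353222-47414931), the type I receptor for TGF-beta, was at 49.1, 50.4 and 49.0 CPM in YT-FF and at 34.0, 24.7 and 31.6 CPM in the libraries labelled YT-AKO. The 3 controls were almost equal and all YT-AKO values lay below them (log2 fold change -0.72 ± 0.165 SE, edgeR adjusted p = 0.0271). *Tgfbr3* (ENSMUSG00000029287, chr5:107106570-107289629), the co-receptor betaglycan that presents TGF-beta to the signalling receptors, was at 216, 222 and 170 CPM in YT-FF and at 128, 101 and 118 CPM in YT-AKO. Here too the groups were apart (log2 fold change -0.81 ± 0.180 SE, edgeR adjusted p = 0.0255).

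Both calls held without YT-AKO 2, at -0.60 for *Tgfbr1* (adjusted p = 0.00647, edgeR) and -0.72 for *Tgfbr3* (adjusted p = 0.0107, edgeR). With the length correction the differences were smaller, -0.48 for *Tgfbr1* (adjusted p = 0.0482, edgeR) and -0.56 for *Tgfbr3* (adjusted p = 0.0459, edgeR). *Tgfbr2*, the type II partner that binds TGF-beta first, was the most abundant receptor per length and did not pass. It was at 268, 277 and 218 CPM in YT-FF and at 251, 170 and 196 CPM in YT-AKO, with overlapping groups and a log2 fold change of -0.31 ± 0.200 SE (edgeR adjusted p = 0.280). With the length correction that value was 0.04.

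Receptors for BMPs and activins did not pass in edgeR, and DESeq2 called 1 of them lower, *Acvr1b* (adjusted p = 0.0175). The largest of these differences were in *Acvr1b*, the type I receptor for activin (log2 fold change -0.96, edgeR adjusted p = 0.0606), *Acvr1* (-0.69, adjusted p = 0.145) and the BMP receptor gene *Bmpr1a* (-0.68, adjusted p = 0.0863). YT-AKO 2 was the lowest library for each of these, with 14.1, 9.20 and 26.6 CPM. Without it *Acvr1b*, *Bmpr1a* and the activin type II receptor gene *Acvr2a* passed, at smaller differences of -0.69, -0.43 and -0.38 and edgeR adjusted p values of 0.0345, 0.0225 and 0.0482. Then 5 of 11 receptors were lower (45.5%), where 14.0% of all genes were. With the length correction added there were 3, *Tgfbr1*, *Tgfbr3* and *Acvr1b* (27.3%, against 8.47% of all genes). *Acvrl1*, the type I receptor of endothelium, was the exception in direction with 46.1, 45.4 and 43.7 CPM in YT-FF and 54.0, 56.3 and 50.4 CPM in YT-AKO (log2 fold change 0.25, edgeR adjusted p = 0.202).

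No SMAD gene passed, although all 8 had log2 fold changes below 0, from -0.98 for *Smad9* to -0.06 for *Smad5*, where 51.0% of all genes did. At an unadjusted p under 0.05 there were 2, *Smad6* and *Smad7*, and neither DESeq2 nor limma-voom called any of the 8 (0 each), with 2 under that unadjusted p by either tool. *Smad4*, the shared partner of all receptor-regulated SMADs, was at 71.3, 81.3 and 83.1 CPM in YT-FF and at 76.8, 70.8 and 67.3 CPM in the libraries labelled YT-AKO, and *Smad5*, of the BMP branch, was at 93.8, 108 and 97.4 against 89.9, 115 and 82.8 CPM. Both pairs of groups overlapped (log2 fold changes -0.13 ± 0.145 SE and -0.06 ± 0.173 SE). The TGF-beta branch genes *Smad2* (-0.27) and *Smad3* (-0.26) and the BMP branch gene *Smad1* (-0.13) were likewise within overlapping ranges. With the length correction *Smad1*, *Smad2* and *Smad5* had values above 0.

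The inhibitory SMADs were the nearest to a call. *Smad7*, which is itself induced by TGF-beta, was at 31.2, 34.5 and 29.9 CPM in YT-FF and at 24.8, 21.7 and 24.6 CPM in YT-AKO. The groups did not overlap, and the log2 fold change was -0.43 ± 0.151 SE (edgeR adjusted p = 0.0741). *Smad6*, a target of BMP signalling, had a log2 fold change of -0.57 ± 0.245 SE (edgeR adjusted p = 0.121). *Smad9* was the rarest at no more than 1.28 CPM in any library.

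The latent TGF-beta binding proteins split by value. *Ltbp2* (ENSMUSG00000002020, chr12:84783212-84876532) encodes the member of this family that sits on elastic microfibrils and does not itself bind latent TGF-beta. It was at 148, 113 and 120 CPM in YT-FF and at 78.8, 61.0 and 79.5 CPM in the libraries labelled YT-AKO. The ranges were well apart (log2 fold change -0.80 ± 0.181 SE, edgeR adjusted p = 0.0264). With the length correction the value was -0.45 and no longer passed (adjusted p = 0.0756, edgeR). The antisense gene *D030025P21Rik* covers 9.34% of its exon bases, and the library kit does not mark strand, so reads there cannot be told apart.

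*Ltbp3*, which carries latent TGF-beta into the matrix, was at 301, 307 and 337 CPM in YT-FF and at 503, 372 and 715 CPM in YT-AKO. All YT-AKO values were above the controls but they ranged widely, and the log2 fold change of 0.75 ± 0.252 SE missed the threshold (edgeR adjusted p = 0.0660). It passed without YT-AKO 2 (0.95, adjusted p = 0.00548, edgeR), with the length correction (1.12, adjusted p = 0.0238, edgeR) and in DESeq2. *Ltbp4* was at 164, 164 and 190 CPM in YT-FF and at 162, 107 and 159 CPM in YT-AKO (log2 fold change -0.28, edgeR adjusted p = 0.327), and *Ltbp1* had a log2 fold change of -0.20. Per length, *Ltbp3* was at 1.84, 2.44 and 2.53 times the TPM of *Ltbp2* in the controls and at 5.76, 5.49 and 8.11 times in YT-AKO. The gap between these ratios likewise follows from the opposite differences of *Ltbp3* and *Ltbp2*.

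Of the antagonists, the BMP-binding *Chrdl1* had the smallest adjusted p of any member. *Chrdl1* (ENSMUSG00000031283, chrX:143285674-143394262) encodes chordin-like 1, a secreted protein that captures BMP4. It was at 65.4, 77.7 and 71.7 CPM in YT-FF and at 32.3, 17.3 and 21.7 CPM in YT-AKO. Every YT-AKO library was below every control by more than the spread within either group (log2 fold change -1.59 ± 0.240 SE, edgeR adjusted p = 0.0171). The value was -1.41 without YT-AKO 2 (adjusted p = 0.00229, edgeR) and -1.34 with the length correction (adjusted p = 0.0182, edgeR).

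*Grem1* (ENSMUSG00000074934, chr2:113746164-113758646) encodes gremlin 1, which binds BMP2, BMP4 and BMP7 and is made by fibroblasts and adipocyte precursors. It was at 11.3, 11.7 and 9.99 CPM in YT-FF and at 7.67, 3.30 and 4.61 CPM in YT-AKO. The groups were apart but the YT-AKO libraries differed among themselves by more than the controls did (log2 fold change -1.08 ± 0.320 SE, edgeR adjusted p = 0.0479). Without YT-AKO 2 the value was -0.85 (adjusted p = 0.0356, edgeR), and with the length correction it was -1.03 and did not pass (adjusted p = 0.0541, edgeR).

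The activin antagonist *Fst*, follistatin, was at 11.1, 13.9 and 12.1 CPM in YT-FF and at 26.3, 17.0 and 14.4 CPM in YT-AKO. It was higher by value in all 3 YT-AKO libraries, with a log2 fold change of 0.64 ± 0.256 SE (edgeR adjusted p = 0.103). *Fstl1*, a follistatin-like secreted glycoprotein, was at 196, 274 and 219 CPM in YT-FF and at 284, 182 and 286 CPM in YT-AKO. Those groups overlapped (log2 fold change 0.13, edgeR adjusted p = 0.702), as did those of the decoy receptor gene *Bambi* (0.21, edgeR adjusted p = 0.613). Per length, *Chrdl1* stood at 0.243, 0.207 and 0.238 times the TPM of *Fstl1* in the controls and at 0.0826, 0.0694 and 0.0551 times in YT-AKO.

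The 6 members that were not tested had few reads. *Bmp5* had 1 to 5 counts per library, *Bmp8b* 0 to 2, *Gdf6* 1 to 10, *Bmpr1b* 0 to 13 and the BMP antagonist *Nog* 3 to 15. *Mstn*, which encodes the muscle-derived ligand myostatin, was counted 6, 2 and 2 times in the controls and 36, 0 and 0 times in YT-AKO 1, 2 and 3. Skeletal muscle markers summed to 3142 CPM in YT-AKO 1 and to 119 to 450 CPM in the other libraries, and their part in the *Mstn* counts was not tested. Differences in these 6 genes were not detectable at this depth, where 3 counts correspond to 0.128 to 0.177 CPM.

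Levels per length placed the members in an order within each role in the controls. Among ligands, *Tgfb1* was first at 71.7 ± 8.53 TPM (SD, n = 3), followed by *Inhbb* at 52.3 ± 4.05 TPM. *Bmp6* (24.9 ± 2.76), *Gdf10* (21.5 ± 2.68) and *Bmp3* (21.0 ± 9.11 TPM) came next and did not differ beyond their spread. In the libraries labelled YT-AKO *Tgfb1* remained first at 52.3 ± 2.83 TPM, *Gdf10* had 26.4 ± 12.5 TPM, *Inhbb* 17.2 ± 11.5 TPM and *Bmp3* 3.76 ± 1.81 TPM, and *Gdf10* and *Inhbb* overlapped. TPM is used here for order within a group and for ratios of genes within a library, because its scaling shifts with the length composition of each library.

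Of the receptors, *Tgfbr2* (118 ± 19.7 TPM) and *Tgfbr3* (118 ± 21.7 TPM) shared the first place in YT-FF, well above *Bmpr1a* (41.7 ± 1.96), *Acvr1b* (40.3 ± 11.0) and *Acvrl1* (40.2 ± 2.78 TPM), which did not differ beyond their spread. *Smad4* led its class at 80.3 ± 6.35 TPM, ahead of *Smad5* at 51.1 ± 5.56 TPM. *Ltbp3* (132 ± 3.65) exceeded *Ltbp4* (101 ± 4.21) and *Ltbp2* (59.0 ± 8.96 TPM) in the controls, each step being larger than the spread. *Fstl1* was the most abundant of all members at 178 ± 36.5 TPM, above *Chrdl1* at 40.3 ± 4.47 TPM, and *Fst* (10.3 ± 1.48) and *Grem1* (10.1 ± 1.28 TPM) were alike within their spread.

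**Figure D3:**
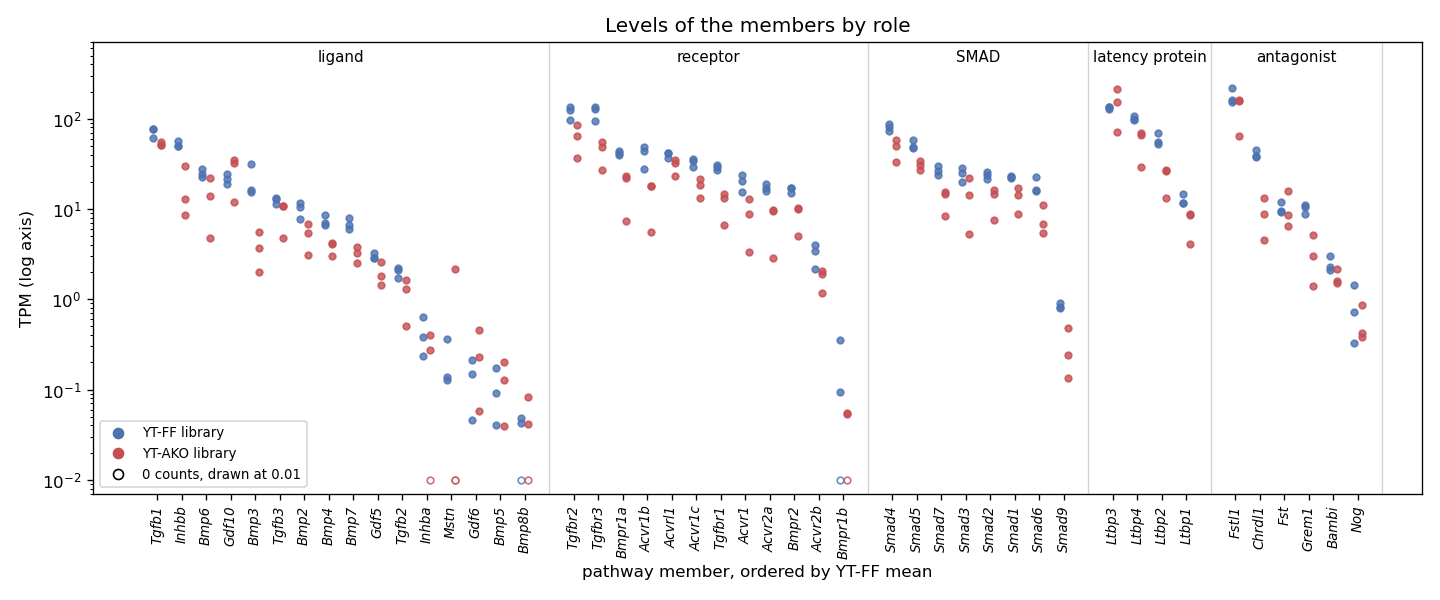
TPM of each of the 46 members in every library on a log axis, grouped by role and ordered by the YT-FF mean; open symbols mark libraries with 0 counts. Levels run from *Fstl1*, *Ltbp3*, *Tgfbr2* and *Tgfbr3* above 100 TPM in the controls to *Bmp8b* at 0.03 TPM.

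A further 84 genes of the pathway were listed by role, as other ligands, receptors and antagonists, TGF-beta activators, SMAD regulators and target genes, and 67 of them were tested. Of these, 7 were higher and 4 lower (10.4% and 5.97%, against 12.6% and 9.01% of all genes), and their median log2 fold change was 0.24. *Bmp8a* is a ligand near-identical in places to *Bmp8b*, so that shared reads are uncertain. Its counts were 23, 24 and 17 in the controls and 4, 0 and 2 in YT-AKO (log2 fold change -2.98 ± 0.774 SE, edgeR adjusted p = 0.0355). *Gdf15*, a divergent ligand induced by cell stress, rose from counts of 14, 20 and 9 in the controls to 39, 89 and 43 in YT-AKO (2.36 ± 0.483 SE, edgeR adjusted p = 0.0221). *Amhr2*, the type II receptor for anti-Müllerian hormone, was higher at few counts (2.73, edgeR adjusted p = 0.0460) and did not pass without YT-AKO 2 (adjusted p = 0.0531).

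Among the other antagonists *Bmper*, a secreted BMP-binding protein, rose from 12.2, 16.6 and 14.7 CPM in YT-FF to 37.0, 34.0 and 48.4 CPM in YT-AKO. This was opposite in sign to *Grem1* and *Chrdl1* and held in each of the values without YT-AKO 2 and with the length correction (log2 fold change 1.46 ± 0.204 SE, edgeR adjusted p = 0.0166). *Nbl1*, a BMP antagonist of the DAN family named here after its values were seen, was also higher (0.74, edgeR adjusted p = 0.0217). Of 11 tested SMAD regulators 3 passed, all of them lower (27.3%, against 9.01% of all genes). They were the co-repressor gene *Skil* (-0.73, edgeR adjusted p = 0.0344) and the ubiquitin ligase genes *Smurf1* (-0.65, adjusted p = 0.0371) and *Trim33* (-0.84, adjusted p = 0.0258). These 3 and *Nbl1* did not pass with the length correction, where their edgeR adjusted p values were between 0.0657 and 0.197.

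None of the 11 tested TGF-beta activators passed in edgeR (0 calls, with 2 at an unadjusted p under 0.05), while DESeq2 called 1, *Itgb8*, lower and limma-voom called 0. Of 7 tested BMP target genes, 1 was higher (14.3%, against 12.6% of all genes), *Id1*, named after its values were seen. It was at 24.2, 27.9 and 33.7 CPM in YT-FF and 37.0, 92.1 and 59.7 CPM in YT-AKO (log2 fold change 1.14, edgeR adjusted p = 0.0421), and it did not pass with the length correction (0.69, adjusted p = 0.0968, edgeR).

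Of 16 TGF-beta target genes, 15 had log2 fold changes above 0, where 8241 of all 16807 tested genes did. Their median was 0.42, against -0.02 for all genes, and with the length correction 0.40, against 0.06. They were shorter, with a median exon length of 3207 bases against 3888 bases for all tested genes. Of these targets 2 passed (12.5%, against 12.6% of all genes). *Timp1*, an inhibitor of matrix metalloproteases, rose from counts of 29, 12 and 11 in the controls to 72, 128 and 62 in YT-AKO (2.71 ± 0.480 SE, edgeR adjusted p = 0.0185). *Cdkn1a*, encoding the cell-cycle inhibitor p21, was at 16.6, 14.9 and 32.5 CPM in YT-FF and at 145, 86.9 and 50.5 CPM in YT-AKO (2.15 ± 0.443 SE, edgeR adjusted p = 0.0226). Without YT-AKO 2 there were 7 that passed (43.8%, against 16.9% of all genes), the added genes being *Col1a1*, *Col1a2*, *Col3a1*, *Postn* and *Snai1*, and with the length correction 5 (31.2%, against 10.1%). *Col1a1* was at 822, 1207 and 948 CPM in YT-FF and at 1729, 711 and 1499 CPM in YT-AKO, where YT-AKO 2 alone lay below the controls.

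**Figure D4:**
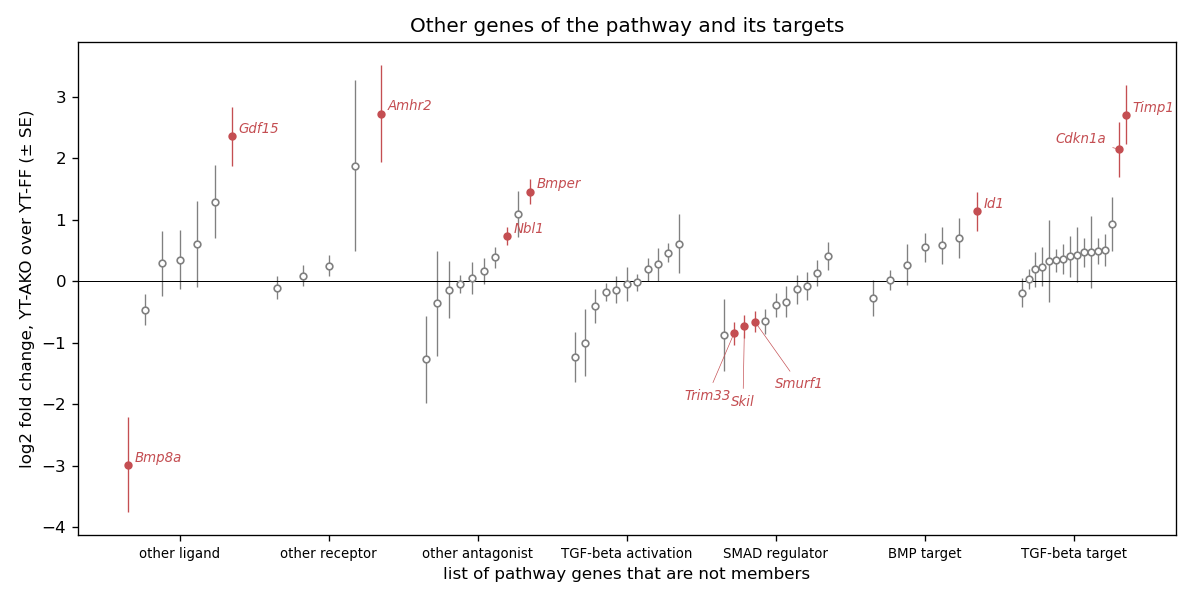
Log2 fold change of YT-AKO over YT-FF, with bars for 1 SE, for the 67 tested pathway genes that are not members, by list; filled red points passed an edgeR adjusted p of 0.05. The 3 SMAD regulators that passed, of 11 tested, lie below 0, and 15 of 16 TGF-beta target genes lie above 0, as do 8241 of all 16807 tested genes.

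Markers of the cell types in scWAT were read beside these values. Adipocyte markers summed to 23240 to 31240 CPM in YT-FF and to 46510 to 92060 CPM in the libraries labelled YT-AKO, with YT-AKO 2 the highest, and 4 of 10 were higher. *Cfd* and *Fabp4* made up most of that difference, and without them the sums were 13520 to 18700 and 18650 to 23010 CPM. *Adipoq*, *Plin1*, *Cidec*, *Lpl*, *Retn* and *Pparg* did not pass. Fibroblast markers, from cells that make most matrix and many BMP antagonists, summed to 1153 to 1594 and 1871 to 2402 CPM, with 4 of 10 higher and 1 lower, *Dpp4* (log2 fold change -0.79, edgeR adjusted p = 0.0334). *Pdgfra* and *Pdgfrb* had log2 fold changes of 0.11 and 0.09 and did not pass. Macrophage markers summed to 551 to 611 and 901 to 1172 CPM (2 of 8 higher, *C1qa* and *C1qb*, without which they summed to 356 to 421 and 359 to 467 CPM), endothelial markers to 855 to 925 and 807 to 1272 CPM (0 higher and 1 lower of 10), and none of the 6 Schwann cell markers passed in edgeR. Lymphocyte markers summed to 1024 to 1265 and 722 to 1341 CPM, with 3 of 10 lower. Mural markers summed to 675.9 to 729.3 CPM in YT-FF and to 566.2 to 674.6 CPM in YT-AKO, ranges that were just apart. Of the 7 mural markers 1 was higher, *Des*, while 4 had log2 fold changes below 0. Over all genes 12.6% were called higher and 9.01% lower. The epithelial marker *Krt5* was at 0 in every library. The part of cell composition in the members' values was not tested.

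**Figure D5:**
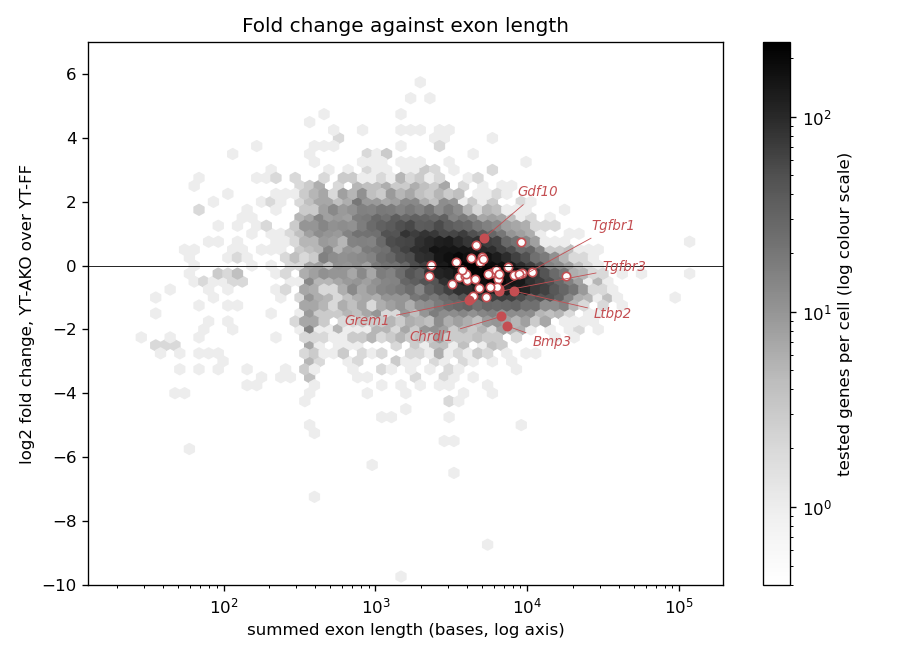
Log2 fold change of YT-AKO over YT-FF against summed exon length (log axis) for all 16807 tested genes, shaded by their number, with the 40 tested members as red circles, filled where an edgeR adjusted p of 0.05 was passed. The cloud slopes downward (Spearman's rho -0.376 across genes, which are not independent replicates) and the members sit on its long side, with *Bmp3* and *Chrdl1* toward its lower edge and *Gdf10* in its upper part.

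The calls differed in how much they rested on single libraries. Without YT-FF 1, and again without YT-FF 2, none of the 40 members passed in edgeR (0 calls), with 8 and 9 at an unadjusted p under 0.05, and the whole table then held 0 and 2 calls. Without YT-FF 3 *Bmp3*, *Tgfbr3* and *Chrdl1* passed. *Bmp3* and *Chrdl1* were called in the other leave-one-out fits, without any one YT-AKO library or YT-FF 3. Without YT-AKO 3, *Tgfbr3*, *Grem1* and *Gdf10* did not pass. Every one of the 7 kept its direction in each of these fits.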

How the data were processed

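RNA was extracted from scWAT with TRIzol, and libraries were built with a kit that does not mark strand, per the labels. The authors' processing notes name HISAT2, featureCounts and DESeq2 and the build GRCm38. The file headers give featureCounts 2.0.1 and the GENCODE M25 annotation. The deposited values are raw read counts per gene, one file per library, and no normalization had been applied by the authors. Each pair of libraries within a group differed by more than sampling noise.

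Of 55401 gene identifiers, 55141 were matched to a symbol. Counts were filtered with filterByExpr (minimum count 10, minimum total 15), scaled by TMM and tested with edgeR 4.0.16 (R 4.3.3) by the quasi-likelihood F test with genotype as the only term, over the 16807 genes that passed, with Benjamini-Hochberg adjustment over all of them. The biological coefficient of variation was 0.288. CPM was taken on the TMM-scaled total, and TPM was computed from the counts and summed exon lengths. The length correction fitted a spline (6 degrees of freedom) of each library's counts on exon length and used it as an offset. DESeq2 1.42.0 and limma-voom 3.58.1 were alternatives. On simulated counts of the same 16807 genes for this comparison, 200 genes were changed by a log2 fold change of 2. They were drawn from genes above a set mean count. Of these 89.5% were called, with 5 false calls. Tested members ranged from -1.90 to 0.87, and the simulation held neither the trend with exon length nor the separate profile of YT-AKO 2. It therefore does not give the power or the error rate for the members. Counting error alone is covered by the limit of 3 counts.

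The members and gene lists were chosen with earlier results of these data known. Values in every library are given for members that passed an adjusted p of 0.05 without overlap between groups and for the 2 members of each role with the highest mean TPM, and other members near a call were added after their values were seen. Other pathway genes that passed are named, at most 5 in each direction, with stated exceptions.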

Additional observations from a re-analysis of the deposited data

How the results depend on the processing

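None of the calls reversed direction. Over 678 values of single tested members under the alternatives, 619 stayed on their side of the threshold, 40 lost a call and 19 gained one. The sign differed from the reported one in 44 of these values, all of members that had not passed. The number of members higher, 1 in the report, was 0 with upper-quartile scaling, library totals alone and limma-voom, and 2 with DESeq2, with the length correction and with that correction without YT-AKO 2, an alternative chosen after seeing the data. Over all genes the share higher was 11.7% with upper-quartile scaling, 6.77% with library totals alone and 11.8% with limma-voom. It was 15.1% with DESeq2, 10.1% with the length correction and 15% with that correction without YT-AKO 2. The number lower, 6 in the report, was 10 with library totals alone. The share of all genes lower then also moved, from 9.01% to 16.8%. Leaving out 1 library gave 0 to 2 higher and 0 to 9 lower. In those fits 0% to 16.9% of all genes were higher and 0% to 14% lower. Of the other pathway genes, 7 higher became 4 with library totals, 11 with the length correction and 16 with that correction without YT-AKO 2, and 4 lower became 1 with the length correction and 2 with it and without YT-AKO 2. The share of all genes lower was 4.54% with the length correction and 8.47% with it and without YT-AKO 2. Leaving out 1 library gave 0 to 13 higher and 0 to 5 lower. *Wwtr1* was at 0.59 (log2 fold change) with library totals alone and did not pass. Leaving out 1 library gave -1.08 to -0.90 for *Yap1* and 0.81 to 1.03 for *Wwtr1*, and without YT-FF 1 or YT-FF 2 neither passed.

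Replicate numbers were shared between the groups, but the deviations of same-numbered libraries did not correlate in every pair (0.126, -0.118 and -0.0893), and not every library correlated best with its own number, so the numbers were not taken to pair the samples. A fit with the replicate number as a block left 0 members higher and 1 lower, and 0 higher and 0 lower of the other pathway genes, where it left 24 higher and 9 lower over all genes. With the length correction added to the block these counts were 0 and 1 for members and 1 and 0 for the other pathway genes. Over all genes they were 59 and 22. *Yap1* was then at -0.98 with the block and -0.57 with both, and *Wwtr1* at 0.89 and 1.02, none passing. The calls of *Bmp8a*, *Amhr2* and *Timp1* rest on 0 to 128 counts a library.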
